A study of Mus musculus with 32 samples.

Results

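Genes of inhibitory neurotransmission through GABA and glycine were followed in 2 brain regions of mice with altered histone H3K4 methylation enzymes. The 28 genes were taken as a listed set of symbols from the 53715 genes of the deposited tables. No measured value entered the rule, but the list was drawn up with earlier results of these data known. They comprised 13 GABA-A receptor subunits, 2 GABA-B receptor subunits, 5 genes for glycine receptor subunits and the receptor anchor, 6 genes of GABA synthesis, packaging, uptake and breakdown, and 2 chloride transporters. RNA was sequenced from amygdala and hippocampus of 16 adult male F1 hybrids of 129S1/SvImJ fathers heterozygous for *Kmt2a*, an H3K4 methyltransferase, and C57BL/6J mothers heterozygous for *Kdm5c*, an X-linked H3K4 demethylase, which gave 32 libraries. WT mice were *Kmt2a*+/+ and *Kdm5c*+/y, *Kmt2a*-HET mice *Kmt2a*+/- and *Kdm5c*+/y, *Kdm5c*-KO mice *Kmt2a*+/+ and *Kdm5c*-/y, and double mutants (DM) *Kmt2a*+/- and *Kdm5c*-/y, with 4 mice each. All groups shared the hybrid background. Both mutant alleles were carried throughout the body, and each library came from microdissected tissue of mixed cell types. In such bulk samples, fewer cells of a type and less RNA per cell cannot be told apart.

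GABA is the main inhibitory transmitter of the forebrain. It is made from glutamate by *Gad1* and *Gad2*, packed into vesicles by the transporter of *Slc32a1*, cleared from the extracellular space by *Slc6a* family transporters, and broken down by *Abat*. GABA-A receptors and glycine receptors are pentameric chloride channels whose subunit mix sets their location, kinetics and drug sensitivity, whereas GABA-B receptors are G protein-coupled heterodimers. Gephyrin (*Gphn*) anchors GABA-A and glycine receptors at the synapse, and the balance of the chloride importer *Slc12a2* and the exporter *Slc12a5* sets whether the current inhibits a neuron.

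The labelled regions and genotypes were first checked on the data. Amygdala libraries held 19215503 to 26033615 gene counts and hippocampal libraries 19322262 to 27798980, so that 3 counts corresponded to at most 0.156 CPM. The summed normalised count of 5 hippocampal markers ranged from 6359 to 16596 in the hippocampus and from 741 to 1800 in the amygdala. The 6 amygdala markers overlapped between the regions when summed (3860 to 6332 in the amygdala, 2811 to 5512 in the hippocampus), so as a set they did not separate the regions. *Isl1*, 1 of the 6, ranged from 22.8 to 252 in the amygdala and reached 26.9 in the hippocampus. A single marker picked from the list is no check of the labels. Amygdala libraries also held variable amounts of striatal marker RNA (8 genes, 8601 to 63200). *Kdm5c* counts did not overlap between WT and *Kdm5c*-KO hippocampi (lowest WT library 1464, highest *Kdm5c*-KO library 1410), and fell by 0.34 on the log2 scale (adjusted p = 0.0299, DESeq2). In the amygdala they overlapped (1177, 1521, 1618 and 1965 in WT, 1199 to 1400 in *Kdm5c*-KO), with a log2 difference of -0.32 (adjusted p = 0.467, DESeq2), and the lowest WT value was that of replicate 1. *Kmt2a* was not lower in *Kmt2a*-HET mice (log2 difference 0.01 for amygdalae and 0.21 for hippocampi), and as gene counts include exons outside the deleted parts, these genes check the labels only in part. In 4 libraries several markers stood apart. WT amygdala replicate 1 had the highest excitatory neuron sum (122360 against a region median of 80572) and the lowest *Isl1*. Its sum of the 6 amygdala markers was nonetheless the highest of WT (6175, region median 4363). *Kdm5c*-KO hippocampus replicate 1 had the highest striatal (15777, region median 4359), choroid plexus (103540, region median 3860) and fibroblast sums. The others were DM amygdala replicate 1, with the highest choroid plexus (40497, region median 979) and fibroblast sums (5815, region median 3144), and *Kdm5c*-KO amygdala replicate 3, with the lowest striatal sum and the highest pituitary sum (1108, region median 262). For many of the results that depend on them, values without the library are also given.

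Several members lie in clusters of GABA-A subunit genes. The promoters of the chromosome X and chromosome 7 neighbours are shown because *Gabre*, *Gabra3* and *Gabrq* were all lower in the hippocampus than in the amygdala, whereas on chromosome 7 *Gabra5* was higher and *Gabrg3* lower. On mm10, *Gabre*, *Gabra3* and *Gabrq* span X:72255999-72842602, and *Gabrg3* and *Gabra5* span 7:56716465-57510059. The RefSeq sequences (GRCm38.p6) below are the bases just upstream of each start site, outside the gene body, with CpG dinucleotides in capitals.
*Gabre* (X:72274804-72274971, minus strand, 168 bases): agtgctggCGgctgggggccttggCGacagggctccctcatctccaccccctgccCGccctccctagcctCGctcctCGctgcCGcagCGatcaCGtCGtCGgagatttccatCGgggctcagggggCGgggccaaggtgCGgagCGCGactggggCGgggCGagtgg
*Gabra3* (X:72656849-72657057, minus strand, 209 bases): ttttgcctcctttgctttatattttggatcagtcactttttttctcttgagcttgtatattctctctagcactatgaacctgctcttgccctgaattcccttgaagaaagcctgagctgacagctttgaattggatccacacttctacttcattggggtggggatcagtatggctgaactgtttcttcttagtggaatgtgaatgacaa
*Gabrq* (X:72824928-72825177, plus strand, 250 bases): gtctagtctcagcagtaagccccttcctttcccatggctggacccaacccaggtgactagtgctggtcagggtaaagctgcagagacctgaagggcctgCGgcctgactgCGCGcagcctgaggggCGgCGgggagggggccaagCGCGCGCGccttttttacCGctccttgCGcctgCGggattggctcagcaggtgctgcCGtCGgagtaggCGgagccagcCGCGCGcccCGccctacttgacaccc
*Gabra5* (7:57510060-57510309, minus strand, 250 bases): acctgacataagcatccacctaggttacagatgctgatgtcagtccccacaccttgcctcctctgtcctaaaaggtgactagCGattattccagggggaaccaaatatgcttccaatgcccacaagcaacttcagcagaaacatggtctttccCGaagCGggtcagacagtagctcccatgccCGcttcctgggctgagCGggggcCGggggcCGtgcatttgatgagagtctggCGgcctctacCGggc
*Gabrg3* (7:57387216-57387465, minus strand, 250 bases): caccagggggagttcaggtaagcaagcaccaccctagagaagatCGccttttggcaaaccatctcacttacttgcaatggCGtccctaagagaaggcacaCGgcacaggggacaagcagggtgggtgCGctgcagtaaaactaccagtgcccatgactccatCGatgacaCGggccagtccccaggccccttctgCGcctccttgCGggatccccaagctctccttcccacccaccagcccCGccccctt

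The neighbours differed in CpG content, in stretches of unequal length. The *Gabre* stretch of 168 bases held 17 CpG, the *Gabra3* stretch of 209 bases held 0, and the *Gabrq* stretch of 250 bases held 19. The *Gabra5* and *Gabrg3* stretches, also of 250 bases, held 9 each. Over the full 250 bases before the RefSeq start, *Gabre* had 21 and *Gabra3* 0. Promoters of 24 of the 28 genes were matched. Their median was 12 CpG in the 250 bases before the start (range 0 to 37), against 6 over 27025 genes with an interquartile range of 2 to 16. The 11 matched members that were lower in the hippocampus in every genotype had a median of 12, and so did the other 13. The letters TATAAA, on either strand, were present in 4 member promoters (16.7%) and in 13.0% of all promoters. CACGTG was present in 1 member (4.17%) and in 6.05% of all, and TAATTA in 1 member and in 4.9% of all.

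Levels were compared between genes as TPM, a transcript's share of all RNA molecules in a library after correction for its length. *Gabbr1*, the ligand-binding subunit of the GABA-B receptor, was the most abundant of the 28 genes in both regions, with a mean of 734 TPM in the amygdala and 701 TPM in the hippocampus (n = 16 each). In the amygdala it was followed by *Slc6a11* at 356 TPM, *Slc12a5* at 340 TPM, *Gad1* at 313 TPM, *Slc32a1* at 295 TPM and *Abat* at 268 TPM. These 5 could not be ordered, since each differed from the next by less than the sum of their standard deviations over the 16 libraries. In the hippocampus *Slc12a5* came second at 288 TPM, separated by more than that spread from *Gad1* at 164 TPM, and *Gabbr2* (144 TPM) and *Gabra5* (141 TPM) came next.

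Among the GABA-A receptor subunits, the order of abundance differed between the regions. *Gabra3* (76.0 TPM) and *Gabrd* (61.6 TPM) had the highest means of the listed subunits in the amygdala, but neither these 2 nor *Gabrd* and the next, *Gabrb2*, were separated by more than the sum of their standard deviations. *Gabra5* (141 TPM) had the highest mean in the hippocampus. At the low end were *Gabrr2*, a rho subunit known best from the retina, at 1.32 TPM in the amygdala and 1.12 TPM in the hippocampus, and *Gabra6*, the subunit of cerebellar granule cells, at 0.0331 and 0.0204 TPM. *Gabra6* reached 3.37 normalised counts in *Kdm5c*-KO hippocampus replicate 1 and no more than 2.70 in any other library, about the floor of 3 counts, so that no fold is given for it. *Gabre*, *Gabrq* and *Glra1* were measurable in the amygdala (7.78, 15.3 and 4.18 TPM) and close to the floor in the hippocampus (0.206, 0.213 and 0.101 TPM).

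**Figure D1:**
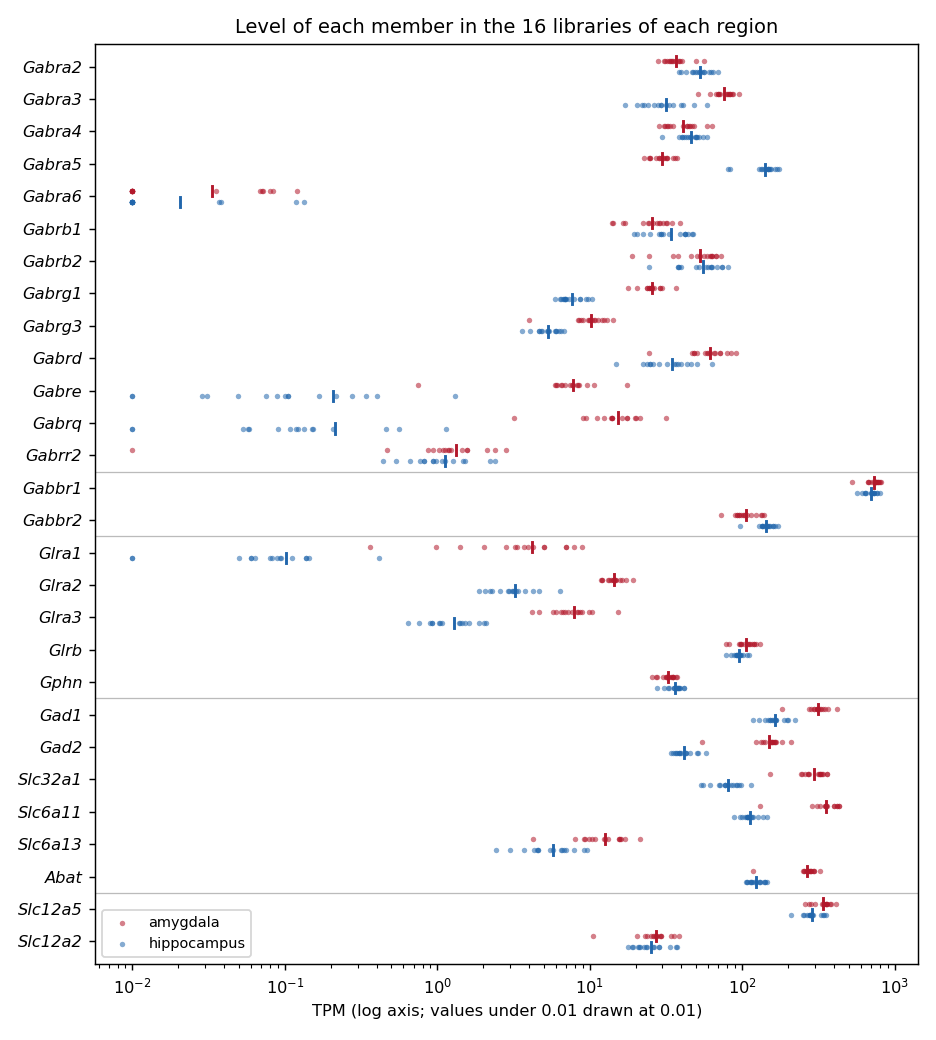
Level of each of the 28 genes in TPM on a log axis, with 1 point per library (n = 16 per region), coloured by region. *Gabbr1* is highest in both regions, *Gabra6* is lowest, and *Gabre*, *Gabrq* and *Glra1* have means (vertical ticks) above 4 TPM in the amygdala and below 1 TPM in the hippocampus; values under 0.01 TPM are drawn at 0.01.

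The hippocampus and the amygdala of the same mice differed in most of these genes. In WT mice, 17 of the 27 members tested were called (DESeq2, adjusted p under 0.1, 8 libraries), 2 higher and 15 lower in the hippocampus, where 16.6% of all tested genes were called. *Kmt2a*-HET mice had 19 calls (4 higher, 15 lower) against a background of 33.6%, *Kdm5c*-KO mice 18 (3 higher, 15 lower) against 21.7%, and DM mice 20 (5 higher, 15 lower) against 30.3%. Over all genes the calls split almost evenly, with 7.86% higher and 8.71% lower in WT mice. The shares were 16.9% and 16.7% for *Kmt2a*-HET, 11.2% and 10.6% for *Kdm5c*-KO, and 15.1% and 15.2% for DM. The median log2 difference of the members was -0.75 in both WT and *Kmt2a*-HET, -0.92 with loss of *Kdm5c* and -1.10 in the double mutants, while that of all genes tested lay between -0.02 and 0.00.

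The 4 genotypes were fitted apart and share no library. In each of them 14 members were lower in the hippocampus (*Gabra3*, *Gabrg1*, *Gabrg3*, *Gabrd*, *Gabre*, *Gabrq*, *Glra1*, *Glra2*, *Glra3*, *Gad1*, *Gad2*, *Slc32a1*, *Slc6a11* and *Abat*), and 2 were higher (*Gabra5* and *Gabbr2*). A further 5 were called in some genotypes (*Gabra2*, *Gabrb1*, *Gphn*, *Slc6a13* and *Slc12a5*), and 7 in none (*Gabra4*, *Gabra6*, *Gabrb2*, *Gabrr2*, *Gabbr1*, *Glrb* and *Slc12a2*). Within mice, 13 members were lower in the hippocampus of all 16 animals, and *Gabra5* was higher in all 16. For 10 members the hippocampal and amygdala libraries did not overlap at all, where 4.17% of 22447 genes showed such a separation. Scaling by ERCC spike-in RNA in place of the median of ratios moved the median of all genes by 0.41 (DM) to 0.88 (*Kdm5c*-KO) on the log2 scale, with 0.76 in WT and 0.51 in *Kmt2a*-HET, so region differences are relative to that of the typical gene. On the spike-in scale 4 members were called in WT mice (*Gabra5* higher, *Gabre*, *Gabrq* and *Glra1* lower), where 305 of 21063 genes were. In *Kmt2a*-HET mice 19 were called on that scale (7 higher, 12 lower; 8886 of 19971 genes), in *Kdm5c*-KO mice 14 (7 higher, 7 lower; 6535 of 15315 genes) and in DM mice 14 (4 higher, 10 lower; 2731 of 20600 genes).

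**Figure D2:**
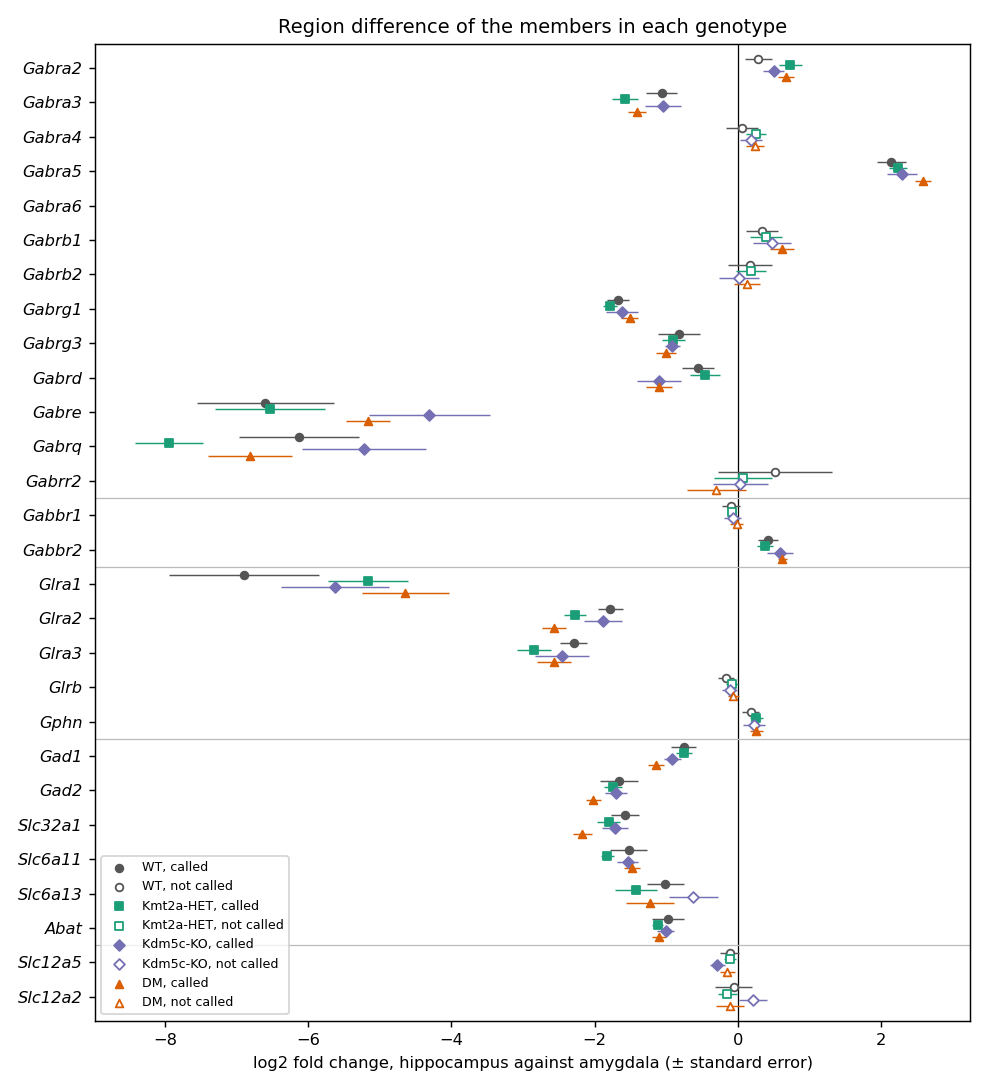
Log2 difference between hippocampus and amygdala for 27 of the 28 genes in each genotype, with standard errors from DESeq2 (8 libraries per fit). Points left of 0 are lower in the hippocampus, filled points were called at an adjusted p under 0.1, and *Gabra6* is left out because it was about the floor. *Gabra5* stands alone on the right, at 2.14 or more in every genotype, and *Gabre*, *Gabrq* and *Glra1* lie farthest left.

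The genes that make, pack and clear GABA were lower in the hippocampus as a group: all 6 in WT, *Kmt2a*-HET and DM mice and 5 of 6 in *Kdm5c*-KO mice. *Gad2*, the synaptic form of glutamate decarboxylase, had 3388 to 10220 normalised counts in the amygdala (median 8169) and 1849 to 3313 in the hippocampus (median 2210). No hippocampal library reached an amygdala library, although the lowest amygdala value was that of the WT library which stood apart. The log2 difference was -1.66 ± 0.27 (SE) in WT mice (adjusted p = 3.39e-08) and -2.02 ± 0.10 in DM mice (adjusted p = 6.31e-83), and without that WT library the WT value was -1.89.

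*Gad1*, which makes most of the GABA pool outside the terminals, ranged from 6360 to 11650 in the amygdala (median 9067) and from 3456 to 6080 in the hippocampus (median 4875). Its difference was smaller than that of *Gad2*, at -0.75 ± 0.17 in WT mice (adjusted p = 0.000255) and -1.14 ± 0.12 in DM mice (adjusted p = 4.24e-21). On the spike-in scale the WT value of *Gad1* was 0.05, or -0.71 relative to the median of all genes on that scale. *Slc32a1*, which loads GABA and glycine into vesicles, ranged from 4673 to 10267 in the amygdala (median 8086) and from 1467 to 3315 in the hippocampus (median 2188), a log2 difference of -1.58 ± 0.20 in WT mice (adjusted p = 1.49e-13). Without the WT amygdala library that stood apart, *Gad1* was at -0.89 and *Slc32a1* at -1.73.

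*Slc6a11*, a GABA transporter of astrocytes, ranged from 5890 to 16673 in the amygdala (median 14171) and from 3654 to 5834 in the hippocampus (median 4387). The lowest amygdala value again came from WT replicate 1, and the WT difference of -1.53 ± 0.26 (adjusted p = 1.82e-07) became -1.76 without it. The 6 astrocyte markers did not share a direction. In WT mice *Slc1a2* and *Gfap* had higher means in the hippocampus and *Aldh1l1*, *Gja1*, *Slc1a3* and *Aqp4* lower ones, and 2 of the 6 were called higher and 0 lower. Their sum, most of it *Slc1a2*, had a median of 85709 in the amygdala and was at 95920 or more in every WT hippocampus, and the part of astrocytes in the *Slc6a11* result was not tested. *Abat*, the mitochondrial transaminase that degrades GABA, ranged from 5905 to 12957 in the amygdala (median 11630) and from 4724 to 6917 in the hippocampus (median 5335), with a WT difference of -0.98 ± 0.22 (adjusted p = 0.000144), or -1.17 without that library. *Slc6a13*, a GABA transporter best known from the meninges, ranged from 80.7 to 409 and from 49.0 to 207, and was called in WT (-1.01 ± 0.26, adjusted p = 0.00174), *Kmt2a*-HET (-1.43 ± 0.29) and DM mice (-1.22 ± 0.34), where the call was lost without the mice numbered 1 (-1.14, adjusted p = 0.172). In *Kdm5c*-KO mice it was at -0.62 (adjusted p = 0.239), at -0.77 (adjusted p = 0.0327) with the mouse as a block, and at -0.97 (adjusted p = 0.00979) without hippocampus replicate 1. Its highest hippocampal value, 207, was in the *Kdm5c*-KO library with a fibroblast marker sum of 10092, where the other hippocampi reached 4107. *Kmt2a*-HET hippocampus replicate 1 held 203 with a fibroblast sum of 2267, and DM replicate 4, with the sum of 4107, held 113. The part of fibroblast RNA in this result was not tested.

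Of 12 markers of GABA neuron classes, 6 were called lower in the hippocampus of WT mice and 8 in DM mice, and none was called higher. Their sum ranged from 10719 to 14383 over amygdala and from 5437 to 11719 over hippocampal libraries, which overlap. *Pvalb*, the marker of fast-spiking interneurons, was in WT mice at 758 to 1086 in hippocampi against 333, 420, 1151 and 766 in amygdalae, without passing the test, and *Npy* overlapped (228 to 584 against 212 to 725). Striatal medium spiny neuron markers, which label another GABA neuron type, ranged from 8601 to 63200 in the amygdala and, leaving out *Kdm5c*-KO replicate 1, from 3769 to 5314 in the hippocampus. Of the 2 amygdala libraries with the lowest striatal sums, *Kdm5c*-KO replicate 3 (8601) held *Gad2* at 8359 and WT replicate 1 (11581) at 3388, the lowest of the region. The part of either cell type in the region differences was not tested.

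GABA-A receptor subunits moved in both directions. *Gabra5*, the subunit of extrasynaptic receptors that is prominent on hippocampal pyramidal cells, ranged from 582 to 905 in the amygdala (median 697) and from 2084 to 4431 in the hippocampus (median 3633). Every hippocampus exceeded every amygdala, and the log2 difference was 2.14 ± 0.21 in WT (adjusted p = 1.7e-22) and 2.58 ± 0.11 in DM mice (adjusted p = 1.89e-117), with *Kmt2a*-HET at 2.23 ± 0.12 and *Kdm5c*-KO at 2.29 ± 0.21 between them. All 3 *Gabra5* transcripts tested in WT mice were called higher in the hippocampus, by 1.91, 1.94 and 2.26 on the log2 scale, and these were the only higher calls among 73 member transcripts tested. The 17 lower calls came from the other 13 genes with a called transcript, and 7.17% of all transcripts tested were called.

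The neighbour of *Gabra5* on chromosome 7, *Gabrg3*, moved the other way, with 346 to 1083 counts in the amygdala (median 779) and 297 to 514 in the hippocampus (median 431). It was called in each genotype, from -0.83 ± 0.29 in WT (adjusted p = 0.0372) to -1.004 ± 0.141 in DM mice (adjusted p = 1.98e-11). The WT call was lost when amygdala replicate 2 or 4 or hippocampus replicate 1 or 3 was left out, and in edgeR (adjusted p = 0.101). Without amygdala replicate 1 the WT difference was -1.07 (DESeq2 adjusted p = 3.51e-07). On chromosome 5, *Gabrg1* was lower in the hippocampus (808 to 1413 in the amygdala, 241 to 513 in the hippocampus, no overlap; -1.68 ± 0.15 in WT mice, adjusted p = 7.16e-25). Its neighbours on chromosome 5 leaned the other way or not at all. *Gabra2*, the subunit of synaptic receptors targeted by anxiolytic benzodiazepines, was higher in the hippocampus of *Kmt2a*-HET (0.73 ± 0.16, adjusted p = 3.68e-05), *Kdm5c*-KO (0.50 ± 0.14, adjusted p = 0.00489) and DM mice (0.67 ± 0.11, adjusted p = 6.78e-08), and at 0.29 ± 0.19 (adjusted p = 0.44) in WT mice. *Gabrb1*, a beta subunit, was called in DM mice (0.62 ± 0.17, adjusted p = 0.00137) and, with the mouse as a block, also in *Kmt2a*-HET (0.38, adjusted p = 0.00575) and *Kdm5c*-KO mice (0.49, adjusted p = 0.00102). In *Kdm5c*-KO mice DESeq2 also called it without amygdala replicate 3 (0.73, adjusted p = 0.0161) or hippocampus replicate 1 (0.64, adjusted p = 0.03). In *Kmt2a*-HET mice it was called without hippocampus replicate 1 (0.56, adjusted p = 0.0201). The block added *Gabra4* (0.25, adjusted p = 0.0267) and *Gabrb2* (0.18, adjusted p = 0.0648) in *Kmt2a*-HET mice. In both regions, *Gabrb1* and *Gabrb2* were lowest in the mouse numbered 1 of each genotype.

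The 3 neighbours on chromosome X were lower in the hippocampus to very different degrees. *Gabra3*, the alpha subunit of monoaminergic and other subcortical neurons, ranged from 1782 to 2907 in the amygdala (median 2333) and from 537 to 1830 in the hippocampus (median 911). A single WT hippocampus (1830) exceeded the lowest amygdala library (1782), and the difference was -1.06 ± 0.22 in WT (adjusted p = 2.79e-05) and -1.58 ± 0.18 in *Kmt2a*-HET mice (adjusted p = 2.42e-17). *Gabre*, the epsilon subunit, ranged from 35.1 to 683 in the amygdala (median 305) and from 0 to 58.4 in the hippocampus (median 4). In WT mice 937 counts in 4 amygdalae stood against 9 in 4 hippocampi, a ratio of 104 (95% exact interval 54.5 to 228, counting error only), and in *Kdm5c*-KO mice the ratio was 23.3 (18.5 to 29.7). *Gabrq*, the theta subunit, ranged from 160 to 1288 in the amygdala (median 608) and from 0 to 58.4 in the hippocampus (median 4), with ratios of 69.9 (47.9 to 106) in WT, 266 (144 to 555) in *Kmt2a*-HET, 43.8 (35.1 to 55.3) in *Kdm5c*-KO and 126 (81.3 to 206) in DM mice.

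Markers of the hypothalamus, a region rich in *Gabre* and *Gabrq*, were also present in the amygdala libraries. The sum of 6 hypothalamic markers ranged from 1613 to 7755 over the amygdala libraries and from 25.6 to 107 over the hippocampal ones, leaving out *Kdm5c*-KO replicate 1, where it was 506 and where *Gabre* and *Gabrq* each reached 58.4. Of the 6, *Avp* and *Oxt* made up most of the amygdala sum, *Agrp* did not exceed 13.3 in any amygdala library, and *Hcrt* ranged from 0 to 536. In WT amygdala replicate 1, *Gabre* (35.1), *Gabrq* (160), *Glra1* (9.49) and *Isl1* (22.8) were all at their lowest, with a hypothalamic sum of 2152. WT amygdala replicate 4 and DM amygdala replicates 1 to 3 had lower sums (1613 to 2120), with *Gabre* at 222 to 306 and *Gabrq* at 401 to 550. Without WT amygdala replicate 1 the WT log2 difference went from -6.60 to -6.97 for *Gabre* and from -6.13 to -6.40 for *Gabrq*. Single hippocampi also moved these values. Without WT replicate 4, at 15.7, the WT difference of *Gabrq* was -7.11, and without *Kmt2a*-HET replicate 3, at 10.6, that of *Gabre* went from -6.53 to -8.64. Without *Kdm5c*-KO hippocampus replicate 1, the *Kdm5c*-KO difference went from -4.31 to -5.64 for *Gabre* and from -5.22 to -6.39 for *Gabrq*. The part of hypothalamic RNA in these differences was not tested. Across the 16 amygdala libraries *Gabre* and *Gabrq* had the most alike counts of any pair of members (Spearman 0.93), followed by *Gabra3* with *Gabra5* (0.88) and *Gabrb1* with *Gabrb2* (0.86), all over libraries that share depth and dissection.

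**Figure D3:**
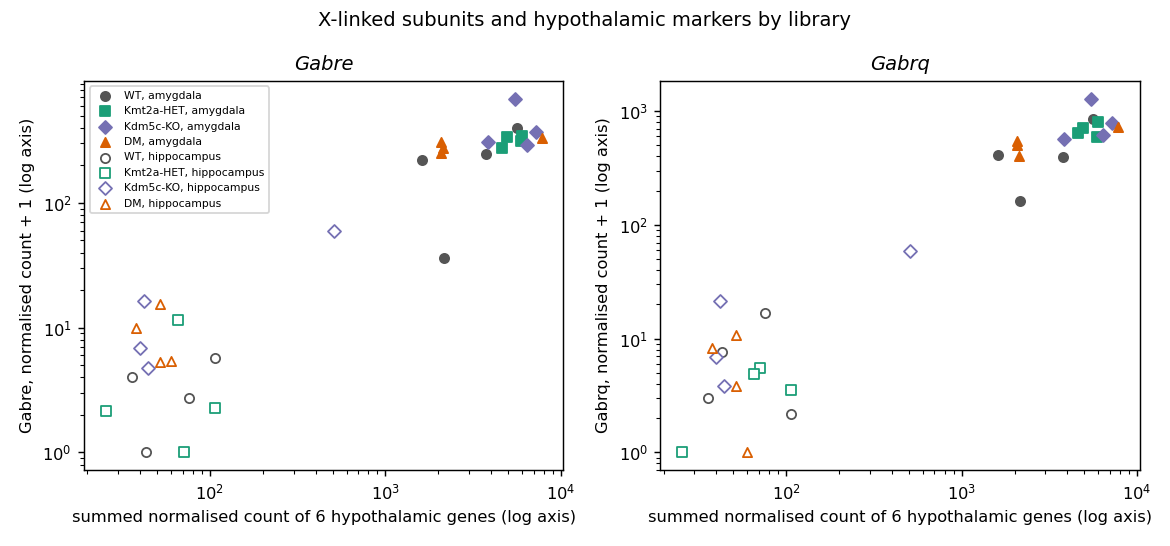
Normalised counts of *Gabre* and *Gabrq*, with 1 added, against the summed counts of 6 hypothalamic markers, 1 point per library, on log axes, with filled points for the amygdala and open points for the hippocampus. Amygdala libraries have marker sums from 1613 to 7755, hippocampal libraries lie below 110 apart from *Kdm5c*-KO replicate 1 at 506, which also has the highest hippocampal *Gabre* and *Gabrq*.

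The glycine receptor alpha subunits *Glra1*, *Glra2* and *Glra3* were lower in the hippocampus in every genotype. *Glra2*, the subunit of fetal and extrasynaptic glycine receptors, ranged from 359 to 548 in the amygdala (median 420) and from 57.8 to 208 in the hippocampus (median 96). The regions did not overlap, and the difference was -1.78 ± 0.18 in WT (adjusted p = 9.05e-21) and -2.57 ± 0.16 in DM mice (adjusted p = 4.46e-53). In *Kdm5c*-KO mice it was -1.88 ± 0.27, and -2.25 without hippocampus replicate 1, which held the highest hippocampal value. *Glra3* ranged from 277 to 897 (median 444) and from 42 to 140 (median 78), with -2.29 ± 0.19 in WT mice (adjusted p = 2.89e-31). *Glra1*, the adult subunit of spinal cord and brainstem, ranged from 9.49 to 189 in the amygdala, and no hippocampal library exceeded 7.71. Its 377 amygdala counts stood against 3 hippocampal counts in WT mice, a ratio of 125 with an interval of 42.6 to 610, and against 12 in *Kmt2a*-HET mice, a ratio of 37.5 (21.3 to 73). *Kmt2a*-HET hippocampus replicate 3 held 7.71 of the normalised counts, and without it the log2 difference of *Glra1* went from -5.16 to -6.22. Without *Kdm5c*-KO amygdala replicate 3 that of *Kdm5c*-KO mice went from -5.63 to -4.93. The beta subunit and the anchor behaved differently from the alpha subunits. *Glrb*, which joins each alpha subunit and binds gephyrin, was not called in any genotype (-0.17 to -0.06), although without WT amygdala replicate 1 the WT value was -0.24 (adjusted p = 0.0472). *Gphn* was higher in the hippocampus of *Kmt2a*-HET (0.26 ± 0.09, adjusted p = 0.0189) and DM mice (0.26 ± 0.09, adjusted p = 0.0144). In *Kdm5c*-KO mice *Gphn* was at 0.22 (DESeq2 adjusted p = 0.362), and was called without hippocampus replicate 1 (0.32, adjusted p = 0.0721).

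Of the GABA-B receptor subunits, *Gabbr2*, which couples the receptor to G proteins, ranged from 4260 to 7711 in the amygdala (median 5478) and from 5731 to 9656 in the hippocampus (median 8092). It was called higher in the hippocampus of each genotype, from 0.38 ± 0.11 in *Kmt2a*-HET (adjusted p = 0.00249) to 0.62 ± 0.07 in DM mice (adjusted p = 5.94e-19). The WT call (0.42 ± 0.14, adjusted p = 0.0308) was lost without amygdala replicate 2 or 4 or hippocampus replicate 4. *Gabbr1*, its partner, lay between -0.10 and -0.02 and was called in no genotype. Its transcript of 4036 bases made up 59.3% ± 3.3 (SD, n = 16) of *Gabbr1* TPM in amygdalae and 54.2% ± 2.8 in hippocampi, and that of 1595 bases made up 31.2% ± 3.8 and 36.2% ± 3.5, with neither called as changed between WT regions. Of the chloride transporters, *Slc12a5* was called in *Kdm5c*-KO mice (-0.29 ± 0.10, adjusted p = 0.0341), a call lost without amygdala replicate 2 or 4. *Slc12a2* was called in no genotype and had its highest hippocampal counts (2530, 2281 and 2135) in 3 libraries with choroid plexus sums of 103540, 27253 and 27123, but was at 1569 and 1487 in 2 others with sums of 25465 and 26065. Choroid plexus expresses *Slc12a2*, and its part in these values was not tested.

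Other genes of the pathway were examined by a list of 35. In WT mice 11 of 33 tested were called (7 higher, 4 lower in the hippocampus), against 16.6% of all genes, and in *Kmt2a*-HET mice 23 of 32 (12 higher, 11 lower), against 33.6%. *Kdm5c*-KO mice had 12 of 32 (7 higher, 5 lower), against 21.7%, and DM mice 18 of 32 (10 higher, 8 lower), against 30.3%. Among those higher in all genotypes were *Kctd12* (an auxiliary GABA-B subunit), *Nsf*, *Shisa7* (a GABA-A receptor partner), *Slitrk3* (an adhesion protein of inhibitory synapses) and *Trak1*. Lower in all were *Hap1*, *Kctd8* (another auxiliary GABA-B subunit) and *Slc6a9*, the glial glycine transporter.

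*Gabrd*, the delta subunit of extrasynaptic receptors that carry tonic inhibition in dentate granule cells, was called both between regions and between genotypes, as was *Gabre*, at counts near the floor in the hippocampus. In the amygdala it ranged from 443 to 1560 (median 1163). In the WT hippocampi it was at 889, 738, 726 and 1203, in *Kmt2a*-HET at 945, 928, 431 and 735, in *Kdm5c*-KO at 510, 538, 297 and 484, and in DM at 652, 515, 695 and 450. Every *Kdm5c*-KO hippocampus and every DM hippocampus lay below every WT hippocampus, while *Kmt2a*-HET overlapped WT. *Gabrd* was the only member without overlap between *Kdm5c*-KO and WT hippocampi, where 3.97% of genes showed none. *Kdm5c*-KO differed from WT by -0.96 ± 0.24 (DESeq2 adjusted p = 0.0193), a mean of 457 ± 109 (SD, n = 4) against 889 ± 222, and was the 1 call among 26 members tested, where 1.01% of all genes were called. DM differed from WT by -0.62 ± 0.24 (adjusted p = 0.383), and *Kmt2a*-HET by -0.22. These comparisons share the WT libraries.

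The *Kdm5c*-KO call was lost in edgeR (adjusted p = 0.200), without WT replicate 4 (-0.78, adjusted p = 0.182) and without *Kdm5c*-KO replicate 3 (-0.80, adjusted p = 0.151). With the 8 hippocampi that lack *Kdm5c* set against the 8 that have it, and *Kmt2a* as a second term, *Gabrd* fell by 0.68 ± 0.18 on the log2 scale (adjusted p = 0.0133), and the call held whichever of the 16 libraries was left out, but not in edgeR (adjusted p = 0.106). In the amygdala, *Gabrd* was at 1271, 882, 1519 and 1560 in WT and at 1331, 874, 443 and 1300 in *Kdm5c*-KO, which overlap. Dentate granule cell markers varied among the same hippocampi. *Prox1* was at 2488, 2872, 1797 and 1394 in WT and at 799, 2445, 1043 and 1100 in *Kdm5c*-KO, with a log2 difference of -0.67 (adjusted p = 0.708). *C1ql2* was at 2310, 1595, 1406 and 1213 in WT and at 862, 1905, 1052 and 986 in *Kdm5c*-KO, with a difference of -0.44 (adjusted p = 0.732). *Dsp* was at 2187, 2324, 1547 and 888 in WT and at 504, 2878, 949 and 1007 in *Kdm5c*-KO, with a difference of -0.38 (adjusted p = 0.976). For all 3 markers *Kdm5c*-KO replicates 1, 3 and 4 lay below WT replicates 1 to 3 while replicate 2 was within or above the WT range. WT replicate 4 had the lowest WT value of each marker (1394, 1213 and 888) and the highest WT *Gabrd* (1203). Its *Dsp* was below that of *Kdm5c*-KO replicates 3 and 4, and *Kdm5c*-KO replicate 2 held *Gabrd* at 538. In DM hippocampi *Prox1* ranged from 1827 to 2760. The part of granule cell content in the *Gabrd* values was not tested. In the region comparison, *Gabrd* was called lower in the hippocampus of each genotype, at -0.55 ± 0.22 (adjusted p = 0.0819) in WT, -0.46 ± 0.21 (adjusted p = 0.0931) in *Kmt2a*-HET, and -1.10 in both *Kdm5c*-KO (adjusted p = 0.00301) and DM mice (adjusted p = 2e-08). The WT and *Kmt2a*-HET calls were each lost when any of 5 single libraries was left out and in edgeR, and on the spike-in scale these values were 0.56 and 0.06, or -0.20 and -0.45 relative to the median of all genes on that scale. The *Kdm5c*-KO call was lost without the mice numbered 1 (-0.98, DESeq2 adjusted p = 0.175).

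**Figure D4:**
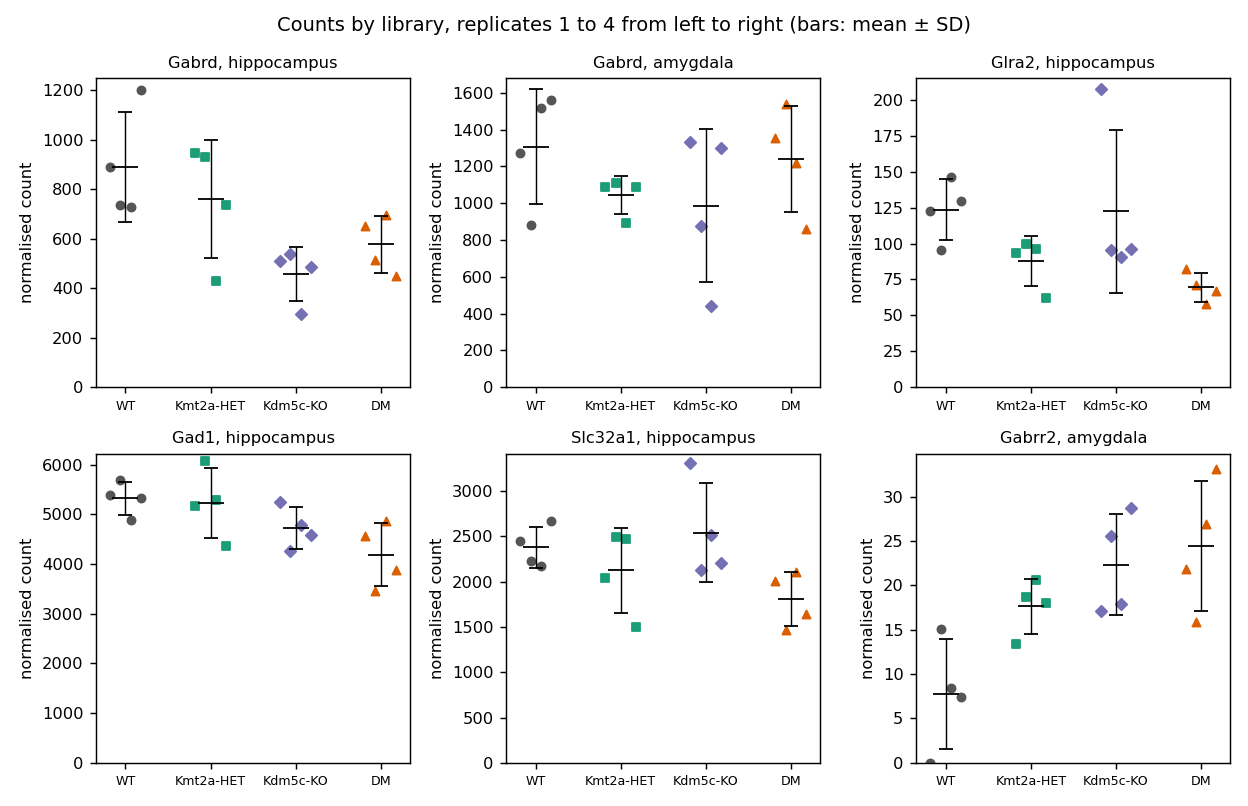
Normalised counts in each library for 6 gene and region pairs (*Gabrd* in hippocampus and amygdala, *Glra2*, *Gad1* and *Slc32a1* in hippocampus, *Gabrr2* in amygdala), by genotype, with 4 mice each and bars for the mean ± SD. Hippocampal *Gabrd* lies below the lowest WT library (726) in all 8 *Kdm5c*-KO and DM mice, and amygdala *Gabrr2* never exceeds 33.1 counts.

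The fit of *Kdm5c* loss in the hippocampus called 3 of 26 members, where 2.71% of all genes were called. Besides *Gabrd* these were *Glrb*, lower by a small amount (-0.13 ± 0.04, adjusted p = 0.0884), and *Gabre*, higher (2.20 ± 0.73, adjusted p = 0.099). Hippocampal *Glrb* was at 2681, 3074, 2894 and 2791 in WT, at 2963, 2997, 2948 and 2789 in *Kmt2a*-HET, at 2448, 2430, 2690 and 2637 in *Kdm5c*-KO and at 2831, 2666, 2731 and 2748 in DM mice, which overlap. Leaving out 1 library ended the *Glrb* call in 12 of 16 cases, as did TMM size factors (adjusted p = 0.127), edgeR (adjusted p = 0.243) and a replicate block (adjusted p = 0.136). Hippocampal *Gabre* was at 4.68, 2.99, 0 and 1.75 in WT, at 0, 1.16, 10.6 and 1.27 in *Kmt2a*-HET, at 58.4, 3.75, 15.3 and 5.85 in *Kdm5c*-KO and at 4.39, 14.4, 9.02 and 4.32 in DM mice. Most of these values are within a few counts of the floor. The *Gabre* call was kept in 4 of 16 fits without 1 library, with differences from 1.51 (adjusted p = 0.425, without *Kdm5c*-KO replicate 1) to 3.21 (adjusted p = 0.00249, without *Kmt2a*-HET replicate 3), and lost with a replicate block (adjusted p = 0.121).

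In the DM hippocampus, no member was called against WT (5 had an unadjusted p under 0.05, and edgeR called none), where 0.881% of all genes were called. The libraries of 5 members nonetheless did not overlap between DM and WT, namely *Gabrd*, *Glra2*, *Gad1* and *Slc32a1* below WT and *Glra1* above it, against 4.61% of 22073 genes. *Glra2* was at 123, 95.7, 147 and 130 in WT and at 82.6, 70.9, 57.8 and 67 in DM, a difference of -0.83 ± 0.27 (DESeq2 adjusted p = 0.158). *Gad1* was at 5392, 5684, 4885 and 5332 in WT and at 4555, 3456, 4866 and 3888 in DM, a difference of -0.35 ± 0.12 (adjusted p = 0.255). For both genes every DM hippocampus lay below every WT hippocampus, and neither difference passed the threshold. *Glra2* was called with a replicate block (-0.85, adjusted p = 0.0676), without the mice numbered 1 (-0.93, adjusted p = 0.0251), an alternative chosen after seeing the data, and without WT replicate 2 (-0.94, adjusted p = 0.0809). *Gad1* was called without DM replicate 3 (-0.43, adjusted p = 0.0927). *Slc32a1* was at 2446, 2230, 2167 and 2671 in WT and at 2010, 1467, 2102 and 1646 in DM, a difference of -0.40 ± 0.18 (adjusted p = 0.506). For *Glra1*, WT held 0 to 1.17 and DM 1.92 to 3.51 normalised counts, both about the floor, and no fold is given.

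The single mutants overlapped WT for *Glra2*, *Gad1* and *Slc32a1*. In *Kmt2a*-HET hippocampi, *Glra2* was at 93.7, 99.9, 96.4 and 62.4, *Gad1* at 5159, 6080, 5298 and 4353, and *Slc32a1* at 2042, 2490, 2474 and 1495. In *Kdm5c*-KO hippocampi, *Glra2* was at 208, 95.6, 90.8 and 96.5, *Gad1* at 5253, 4264, 4792 and 4587, and *Slc32a1* at 3315, 2124, 2520 and 2208. The interaction of the mutations was called for none of the 28 members in the hippocampus (0 at an unadjusted p under 0.05, edgeR none).

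Summed GABA neuron class markers also lay below WT in DM hippocampi. The sum over 12 markers ranged from 5437 to 7588 in DM and from 8131 to 11719 in WT hippocampi, with no overlap, and all 12 had negative log2 differences, of which *Reln* was called (-0.59, adjusted p = 0.00689). The part of GABA neuron number in the *Gad1*, *Slc32a1* and *Glra2* values was not tested. Across the 16 hippocampi, *Glra2* and *Slc32a1* (Spearman 0.75) and *Gad1* and *Slc32a1* (0.73) were among the 3 most alike pairs, after *Gabra3* and *Glra3* (0.87).

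In the amygdala, 1 member was called between genotypes. *Gabrr2* was at 0, 15.1, 8.38 and 7.42 in WT, at 13.3, 18.6, 20.6 and 18 in *Kmt2a*-HET, at 17.1, 25.6, 17.9 and 28.7 in *Kdm5c*-KO and at 21.8, 15.9, 26.9 and 33.1 in DM mice. The *Kdm5c*-KO and DM libraries lay above all WT libraries, where 2.6% and 3.3% of genes showed no overlap with WT. Between *Kmt2a*-HET and WT no member was without overlap, in the amygdala (2.43% of all genes) or the hippocampus (1.98%). DM differed from WT by 1.67 ± 0.48 (adjusted p = 0.061), 1 call among 27 members, where 0.99% of all genes were called. *Kdm5c*-KO differed by 1.54 ± 0.48 (adjusted p = 0.152), by 1.62 (DESeq2 adjusted p = 0.0880) with a replicate block, and by 2.10 (adjusted p = 0.0117) without WT replicate 2. The DM call rests on few counts and on a WT library with 0. It was lost in edgeR (adjusted p = 0.365) and in 6 of 8 fits without 1 library, among them 1.25 (adjusted p = 0.166) without WT replicate 1 and 1.71 (adjusted p = 0.174) without DM replicate 1.

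The other comparisons between genotypes called no member. In the amygdala, DESeq2 called 0 of 28 in *Kmt2a*-HET against WT (1 at an unadjusted p under 0.05, background 0.00329%) and 0 of 27 in *Kdm5c*-KO against WT (3 at an unadjusted p under 0.05, background 0.756%). The same held in the amygdala for DM against *Kdm5c*-KO (0 at an unadjusted p under 0.05, background 0.00329%), DM against *Kmt2a*-HET (2, background 0.805%), the interaction (1, background 0.00329%), *Kdm5c* loss (5, background 1.65%) and *Kmt2a* heterozygosity (0, background 0.0%). In the hippocampus 0 of 28 were called in *Kmt2a*-HET against WT (1 at an unadjusted p under 0.05, background 0.0%) and in DM against *Kdm5c*-KO (4, background 0.0067%). DM against *Kmt2a*-HET (1, background 0.606%), the interaction (background 0.0%) and *Kmt2a* heterozygosity (6, background 0.0957%) also called none there. edgeR called no member in any of these comparisons. At the unadjusted p under 0.005 used for *Kmt2a*-HET, 0 members passed in either region, where 0.287% of all genes passed for amygdalae and 0.251% for hippocampi. Of the 35 other pathway genes, *Trak2* alone was called in any genotype comparison (0.18, adjusted p = 0.0881, *Kdm5c* loss in the hippocampus). Of the 111 transcripts of the members, none was called in *Kdm5c*-KO or DM against WT in either region (2 to 9 at an unadjusted p under 0.05 in each). The share called over all transcripts was 0.501% for *Kdm5c*-KO and 0.429% for DM amygdalae, and 0.402% for *Kdm5c*-KO and 0.481% for DM hippocampi.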

How the data were processed

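Tissue was taken from the amygdala and hippocampus of the same 16 mice, spike-in (ERCC) RNA was added, and directional oligo-dT libraries were sequenced by the authors, who mapped reads to mm10 with STAR 2.5.3a, kept unique reads, removed duplicates and counted with FeatureCounts (Subread 1.5.0). The tables deposited by the authors hold expected counts per gene, of which 7.072% were not whole, and per transcript. The estimator behind them is not given in the sources used here. Removal of duplicates without molecular identifiers can lower the counts of abundant genes. Values were rounded. Symbols, coordinates and lengths came from GENCODE M21, which named 53620 of the 53715 genes and left 95 unnamed, and promoters came from RefSeq. The 92 ERCC sequences were left out of tests and used only for spike-in size factors.

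Each region (16 libraries) was fitted by DESeq2 1.42.0 (R 4.3.3, Wald test) with genotype as the term, or with terms for *Kmt2a* and *Kdm5c* (*Kdm5c* loss and *Kmt2a* heterozygosity). The regions were compared in 8 libraries per genotype. All genes were tested, and the threshold was 0.1 on Benjamini-Hochberg adjusted p-values. For *Kmt2a*-HET an unadjusted p under 0.005 was also used. Normalised counts were divided by median-of-ratios size factors over all 32 libraries, and TPM values were computed from the transcript tables. Ratios near the floor of 3 counts have exact 95% intervals. Intervals and floors cover counting error only. Replicate libraries differed by a chi-square of 3.89 to 136 per gene, so none was a duplicate. On simulated data, 88% of genes changed by 1 on the log2 scale and 25% of genes changed by 0.5 were called in *Kdm5c*-KO against WT amygdala (30374 genes simulated), and 90% and 29% between WT regions (28526 genes simulated). The simulated spread between replicates was a set function of the mean count, not estimated from these libraries. Only genes well above the floor were changed, so these rates do not cover genes near it.

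The regions of 1 mouse are paired by the mouse numbers of the labels. Deviations correlated within a mouse at medians of 0.118 (WT), 0.224 (*Kmt2a*-HET), 0.242 (*Kdm5c*-KO) and 0.123 (DM), and a fit blocked by mouse is given where it changed a call. Counts did not separate overlapping genes beyond strand, and 12 of the 28 genes overlap an antisense gene and 6 a gene of the same strand. Alternatives were edgeR 4.0.16 (quasi-likelihood test with TMM), DESeq2 with size factors from TMM or ERCC, a filter of 10 counts in 4 libraries, an adjusted p under 0.05, a replicate block, and leaving out each library. The members and all lists were chosen with earlier results of these data known. Members called in a comparison were named with their statistics, and the rest by range and count, with others named for their level or as the pair of a called gene. The 3 most alike pairs were named by Spearman correlation. Genes named for libraries that did not overlap were chosen after their values were seen.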

Additional observations from a re-analysis of the deposited data

Results flagged for a closer look

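Among the 184 groups of 4 libraries examined for 23 members, 12 held a library whose gap to the nearest of the other 3 exceeded Dixon's 95% critical share of the group's range, where chance would give about 9.2. The interaction of the mutations was called for no member in either region. In the hippocampus, *Gabra5* was at 2083.8 in WT replicate 4 against 3637.8 to 3896.3 in the other WT libraries, and at 4431.4 in DM replicate 1 against 3468.6 to 3628.1. *Gabrg1* was at 311.01 in the same DM library against 392.79 to 399.8. *Gabre* was at 10.599 in *Kmt2a*-HET replicate 3 against 0 to 1.2735, all near the floor. *Glra2* was at 62.404 in *Kmt2a*-HET replicate 4 against 93.73 to 99.925. *Kdm5c*-KO hippocampus replicate 1, which also had the highest striatal, choroid plexus and fibroblast marker sums, held *Glra2* at 207.63 against 90.847 to 96.492 and *Abat* at 6916.9 against 5137.4 to 5379.2. In the amygdala, the libraries concerned were all *Kmt2a*-HET. *Gabrb1* was at 2134.0 in replicate 1 against 3538.9 to 3764.3, and *Slc32a1* at 8529.5 in the same library against 7033.4 to 7072.3. Replicate 3 held *Gabrg1* at 940.59 against 1042.3 to 1054.8, *Gabrd* at 891.63 against 1085.5 to 1109.7, and *Slc6a11* at 16673 against 15992 to 16053.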

How the results depend on the processing

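For the 74 calls of single members between regions, 1109 alternative values were computed. The direction and the call were kept in 1052, 51 lost the call with the same direction, and 6 changed direction, all with ERCC size factors: in WT mice *Gabrd* 0.56, *Slc6a13* 0.080, *Gabra3* 0.0046 and *Gad1* 0.049, in *Kmt2a*-HET mice *Gabrd* 0.060, and in *Kdm5c*-KO mice *Slc12a5* 0.60, in each case with the median of all genes shifted by 0.51 to 0.88 on that scale. ERCC size factors gave 4 called members in the WT regions (19, 14 and 14 in *Kmt2a*-HET, *Kdm5c*-KO and DM mice), and 0 in DM against WT (amygdala), *Kdm5c*-KO against WT (hippocampus) and *Kdm5c* loss (hippocampus). edgeR likewise called 0 in those 3 genotype comparisons, and gave no value for hippocampal *Gabre*, which its filter removed. An adjusted p under 0.05 left 0 in the DM amygdala and 1 for *Kdm5c* loss in the hippocampus. The labels name no litter, batch or day shared by a replicate number across genotypes, and deviations correlated at a median of 0.0741 (amygdala) and -0.0129 (hippocampus). The mice numbered 1 have lower identification numbers than the other numbered mice, and were the lowest of each genotype in *Gabrb1*, *Gabrb2* and *Kmt2a* in both regions. A replicate block kept *Gabrr2* in DM against WT in the amygdala (1.79, adjusted p = 0.0282) and *Gabrd* in *Kdm5c*-KO against WT in the hippocampus (-0.98, adjusted p = 0.00551). With it, 1 member was also called in *Kdm5c*-KO against WT (*Gabrr2*) and for *Kdm5c* loss (*Gabbr2*) in the amygdala, and 1 in DM against WT (*Glra2*), for *Kdm5c* loss (*Gabrd*) and for *Kmt2a* heterozygosity (*Glra2*) in the hippocampus. Between regions, the block of mice changed no call other than those given above. Leaving out the mice numbered 1, an alternative chosen after seeing the data for this reason, gave 0 in the DM amygdala and 1 for *Kdm5c* loss in the amygdala, DM against WT in the hippocampus and *Kdm5c* loss in the hippocampus. Leaving out 1 library gave 0 to 1 called members in the amygdala for *Kmt2a*-HET, DM, the interaction and *Kdm5c* loss, 0 to 2 for *Kdm5c*-KO, and in the hippocampus 0 to 2 for *Kdm5c*-KO, 0 to 1 for DM, 1 to 3 for *Kdm5c* loss and 0 to 2 for *Kmt2a* heterozygosity. Between regions this range was 14 to 18 in WT, 18 to 20 in *Kmt2a*-HET, 17 to 21 in *Kdm5c*-KO and 20 in DM mice. Without WT amygdala replicate 2, whose *Gabrq* was the highest of WT, *Gabrr2* was called in *Kdm5c*-KO (2.10, adjusted p = 0.0117), and *Gabrq* in *Kdm5c*-KO (1.35, adjusted p = 0.00251) and *Kmt2a*-HET (1.10, adjusted p = 0.0720) and in the interaction (-1.67, adjusted p = 0.0342), each by DESeq2. Without WT amygdala replicate 1, DESeq2 called amygdala *Glrb* in *Kdm5c*-KO (-0.29, adjusted p = 0.0923) and for *Kdm5c* loss (-0.19, adjusted p = 0.0949). Without *Kdm5c*-KO amygdala replicate 3, it called *Gabbr2* for *Kdm5c* loss (-0.31, adjusted p = 0.0299). Without *Kdm5c*-KO hippocampus replicate 1, it called hippocampal *Gad1* for *Kdm5c* loss (-0.28, adjusted p = 0.0652). The causes of these changes were not tested. With 4 mice a group, changes of 0.5 on the log2 scale were mostly below detection in simulated data, for genes well above the floor and at the simulated spread.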
